A study of Caenorhabditis elegans with 12 samples.

Results

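C-type lectin genes (symbols clec- followed by a number) form one of the large gene families of Caenorhabditis elegans. They were followed here across 12 RNA-seq libraries of whole hermaphrodites aged 5 days. The annotation holds 240 protein-coding genes with such a symbol among the 46748 gene identifiers in the counts, and 136 of them had at least 10 counts in 3 or more libraries and are described here. The rest were below that level, 5 of them with no count in any library. The genes just inside the rule were clec-45, clec-157 and clec-230, with 80 to 91 counts over the 12 libraries, and 5 genes just outside it had 65 to 83.

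The libraries form 4 groups of 3. Both groups of CF1038 carry daf-16(mu86), which deletes a large part of daf-16, the FOXO factor that insulin signalling holds back. One was labelled with bcat-1, whose product starts the breakdown of branched-chain amino acids, as the target of feeding RNAi, and the other with L4440, the empty RNAi vector. TU3311 was labelled with daf-7, which encodes a TGF-beta signal made by sensory neurons, or with L4440. TU3311 carries a sid-1 transgene labelled as giving neuronal RNAi, and it is known as a strain in which the unc-119 promoter drives the double-stranded RNA channel SID-1 in neurons, so that fed RNA acts best there. Whether replicate libraries stem from separate cultures is not stated, so that p-values cover the spread between libraries, possibly a technical one. In whole animals, fewer cells of a type and less RNA per cell cannot be told apart.

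C-type lectins are secreted or membrane proteins built around a fold that in many animals binds carbohydrates with the help of calcium. In C. elegans many of them are made in the intestine, and sets of them rise on contact with bacterial or fungal pathogens. A few have been tied to resistance, to feeding behaviour or to development, while for most members no role is established.

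Libraries held 30130249 to 45343624 counts. Library 7 (TU3311 vector, replicate 1) and library 8 (TU3311 with labelled daf-7 RNAi, replicate 1) stood apart from the other 4 of their strain on the first principal component (104.6 and 103.8, against 1.64 to 23.7). Neither gene named as RNAi target was lower where the labels name its RNAi. bcat-1 had 165.9 to 222 CPM with its labelled RNAi and 131 to 151 CPM on vector, and daf-7 had 31.4 to 137 CPM with its labelled RNAi and 6.21 to 12.1 CPM on vector. Directions below are drawn from the labels as they stand. daf-16 had 77.4 to 87.5 CPM in daf-16(mu86) and 185 to 209.6 CPM in TU3311, both on vector. CPM are counts-per-million after scaling of the library sizes by TMM factors.

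Levels within the family spanned 4 orders of magnitude on the raw CPM scale. The mean over the 12 libraries ran between 0.180 and 1960 CPM with a median of 1.82 CPM, and 32 genes averaged 10 CPM or more, 49 between 1 and 10 CPM, and 55 less than 1 CPM. The 10 most abundant genes held 85.9% of the family's summed CPM. Summed over the family, daf-16(mu86) animals had 4865 to 5476 CPM with labelled bcat-1 RNAi and 5377 to 6206 CPM on vector. TU3311 animals had 5686 to 6221 CPM with labelled daf-7 RNAi and 5380.0 to 5529 CPM on vector. In daf-16(mu86), 121 to 129 of the genes had at least 10 counts with labelled RNAi, against 93 to 112 on vector. Over all genes those numbers were 15468 to 16028 with labelled RNAi and 13542 to 14693 on vector. They were not corrected for depth, which was 32831610 to 45343624 counts with labelled RNAi and 30130249 to 43252515 on vector. As 10 counts is also the threshold of the member rule, no result is drawn from these numbers.

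To compare levels between genes, CPM were divided by the exon length of each gene in kilobases. On that scale clec-87 (WBGene00007709, WBcel235 chromosome I, 10184462 to 10185520, minus strand) ranked the highest, with a mean of 2041 CPM per kilobase over the 12 libraries. It was followed by clec-88 (406), clec-63 (353), clec-91 (346), clec-1 (327), clec-50 (311), clec-150 (166), clec-41 (134), clec-266 (118) and clec-146 (71.6). clec-88, clec-63, clec-91, clec-1 and clec-50 lay close together, and their ranges over the 12 libraries overlapped. clec-41 is known from work on infection with pathogenic bacteria, and no role is stated here for the others. Exons of clec-87, clec-91 and clec-266 overlap genes on the other strand, and those of clec-88 overlap ctsa-4.1 on the same strand. The strand setting of the counting is not given in the sources used here, so these values are uncertain.

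**Figure D1:**
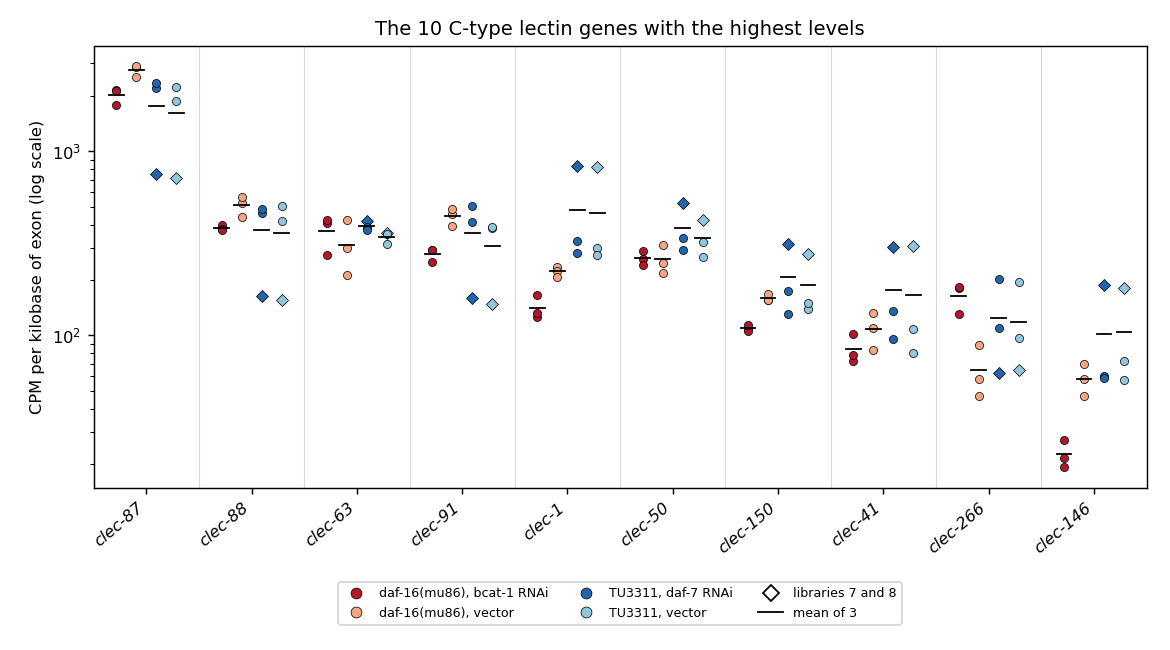
CPM per kilobase of exon on a log scale for the 10 C-type lectin genes with the highest mean over the 12 libraries. Points are libraries, bars the mean of 3, and diamonds libraries 7 and 8, which lie lowest or near lowest for clec-87, clec-88, clec-91 and clec-266 and highest for clec-1, clec-150, clec-41 and clec-146.

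Libraries 7 and 8 differed from the rest of TU3311 in several of these abundant genes. In CPM, clec-87 had 718, 2105 and 2255 with labelled daf-7 RNAi and 685, 1808 and 2136 on vector, where the low values are those of libraries 8 and 7. clec-91 had 136, 353 and 428 CPM with labelled daf-7 RNAi and 126, 328 and 330 CPM on vector. clec-1 went the other way, with 644, 250 and 215 CPM with labelled daf-7 RNAi and 630, 229 and 211 CPM on vector. Of the 136 genes, 70 lay above and 13 below the other 4 TU3311 libraries in both libraries 7 and 8. These are 51.5% and 9.56% of the 136, against 38.98% and 37.3% of all 16618 genes tested. Summed levels of marker lists stood apart in libraries 8 and 7 as well. Those of 9 intestinal markers were higher there (1556 and 1351 CPM, against 843 to 1215 CPM in the other 4), as were those of 10 sperm (36.3 and 33.8, against 11.4 to 21.4), 7 neuronal (433 and 443, against 338 to 359), 6 pharyngeal (514 and 505, against 292 to 385) and 3 coelomocyte markers (21.4 and 30.9, against 10.3 to 20.2). Those of 10 embryo markers were lower (179 and 177 CPM, against 363 to 397 CPM), while oocyte and eggshell, muscle and epidermal markers overlapped with the other 4 libraries. The part of these cell types in the levels of the lectin genes was not tested.

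**Figure D2:**
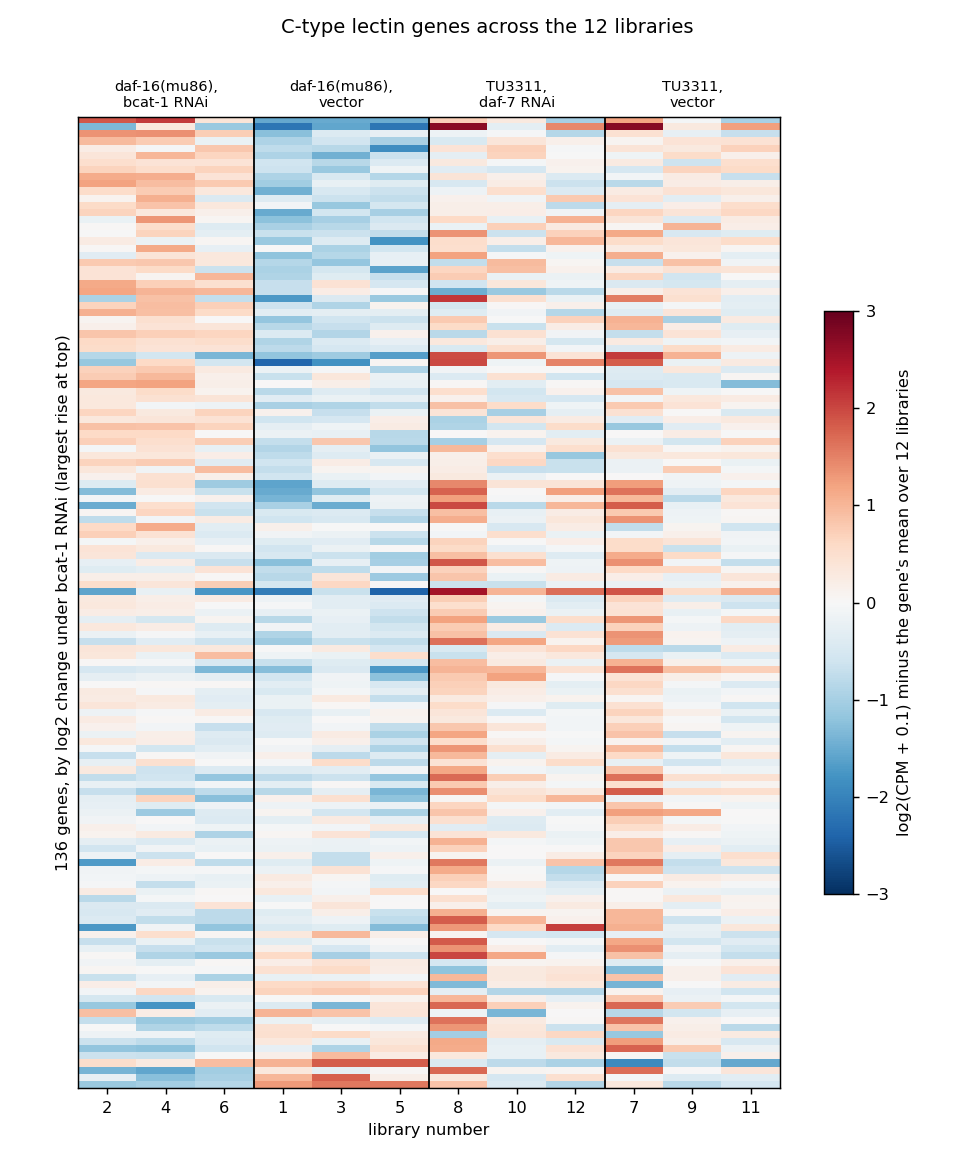
Log2(CPM + 0.1) of the 136 C-type lectin genes in the 12 libraries, each gene relative to its own mean, ordered by the change under labelled bcat-1 RNAi in daf-16(mu86). Upper rows are redder in libraries 2, 4 and 6 than in libraries 1, 3 and 5, and libraries 8 and 7 of TU3311 share a pattern of their own.

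The comparison of labelled bcat-1 RNAi with vector asks how transcript levels differ in animals with the daf-16 deletion. Of the 136 C-type lectin genes, 11 rose and 2 fell by the quasi-likelihood test of edgeR (Benjamini-Hochberg adjusted p under 0.05 over all 16618 genes tested, all 136 among them). Of all genes tested, 4.18% rose and 0.144% fell. The median log2 change was 0.49 over the 136 genes and 0.16 over all genes tested. A log2 change above 0 was seen in 94 of the 136 genes and in 58.5% of all genes tested, and 40 of the 136 had an unadjusted p under 0.05, as did 3613 of all 16618 genes.

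The largest rise was that of clec-47 (WBGene00011668, chromosome V, 15175759 to 15176324, plus strand), for which no role is stated here. It had 13.9, 16.2 and 4.94 CPM with labelled bcat-1 RNAi, against 1.23, 1.25 and 1.26 CPM on vector. The RNAi libraries were all above the vector libraries, and their replicate 3 was the lowest of them. The log2 change was 3.23 ± 0.60 (SE, 3 libraries against 3; edgeR adjusted p = 0.0119), and it passed in 16 of 20 other settings (adjusted p up to 0.103).

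clec-166 (WBGene00009518, chromosome IV, 1249192 to 1251342, minus strand) had 17.7, 17.4 and 10.8 CPM with labelled bcat-1 RNAi and 4.27, 5.87 and 4.48 CPM on vector. The groups did not overlap, with a log2 change of 1.65 ± 0.32 (edgeR adjusted p = 0.0126; 16 of 20 other settings). clec-7 (WBGene00017364, chromosome V, 7328392 to 7330002, plus strand), which is known from infection studies, had 23.7, 21.2 and 16.7 CPM with labelled RNAi and 9.04, 9.18 and 9.17 CPM on vector. Its vector values lay within 0.2 CPM of each other, and its rise was 1.17 ± 0.27 (edgeR adjusted p = 0.0302; 12 of 20 other settings). clec-78 (WBGene00018547, chromosome IV, 3989102 to 4014235, plus strand) has the longest coding sequence of the 136 genes, with 10542 coding bases against a median of 1110. It had 30.9, 37.4 and 32.4 CPM with labelled RNAi and 12.8, 10.4 and 20.9 CPM on vector, a rise of 1.19 ± 0.28 (edgeR adjusted p = 0.0292; 13 of 20 other settings).

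The other 7 genes that rose were expressed at low levels. clec-31 (1.95, 1.73 and 1.70 CPM with labelled RNAi, 0.462, 0.962 and 0.781 CPM on vector) rose by 1.27 ± 0.32 on the log2 scale (edgeR adjusted p = 0.0419). clec-171 averaged 1.88 ± 0.291 and 0.606 ± 0.195 CPM (SD, n = 3 each) in the RNAi and vector libraries, a rise of 1.62 ± 0.39. clec-140 averaged 1.26 ± 0.300 and 0.332 ± 0.117 CPM, a rise of 1.94 ± 0.40, and its exons overlap T05A7.3 and hmg-11 on the same strand. clec-40 averaged 1.13 ± 0.231 and 0.383 ± 0.158 CPM, a rise of 1.53 ± 0.34, with an overlap with phy-3 on the other strand. clec-161 averaged 0.909 ± 0.156 and 0.294 ± 0.124 CPM, a rise of 1.58 ± 0.39, with non-coding genes annotated over its exons. The edgeR adjusted p of these 4 genes ran between 0.0185 and 0.0394. Of 20 other settings clec-31 passed in 8, clec-171 in 12, clec-140 in 15, clec-40 in 14 and clec-161 in 10. clec-2 and clec-37 rested on few reads. clec-2 had 20, 18 and 14 counts with labelled RNAi and 0, 3 and 3 on vector (log2 2.74 ± 0.71, edgeR adjusted p = 0.0464), and clec-37 had 16, 12 and 6 against 1, 3 and 1 (2.39 ± 0.63, edgeR adjusted p = 0.0496). clec-2 passed in 8 of 19 and clec-37 in 6 of 17 other settings. Neither would have met the count rule without the libraries labelled bcat-1 RNAi, so their place among the members is not independent of this rise.

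**Figure D3:**
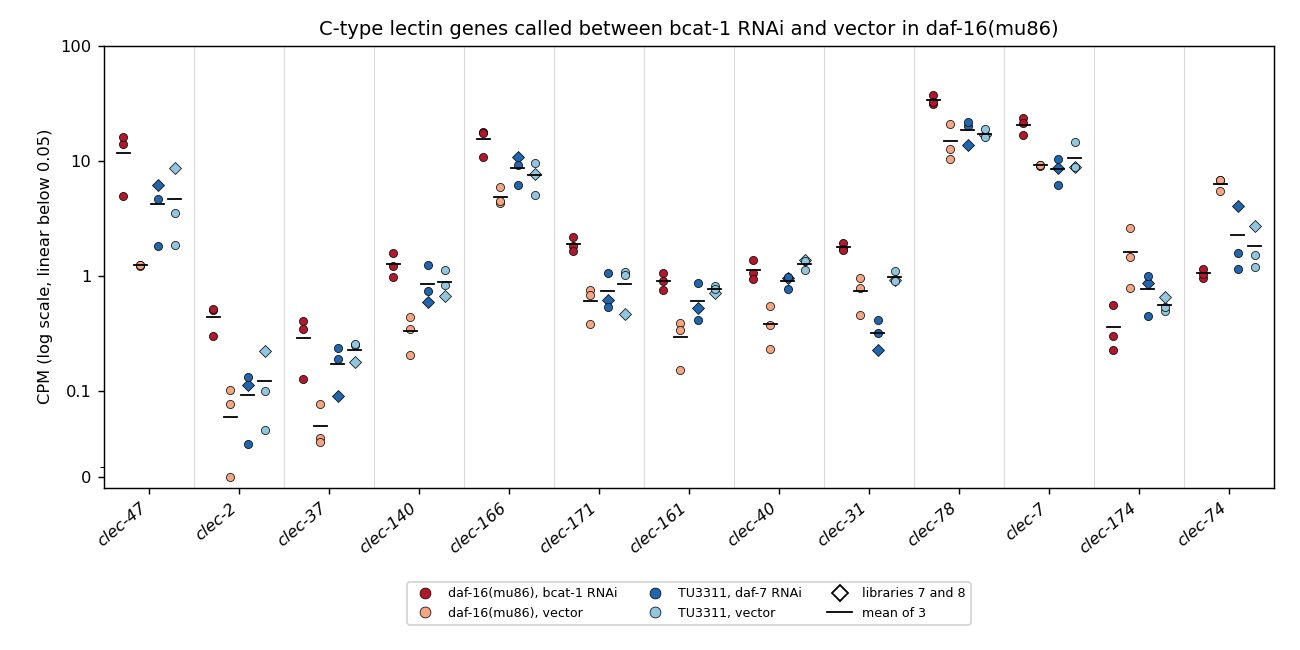
CPM (log scale, linear below 0.05) in all 12 libraries for the 13 C-type lectin genes called between labelled bcat-1 RNAi and vector in daf-16(mu86), ordered by log2 change. Points are libraries, bars the mean of 3 and diamonds libraries 7 and 8, and in each of the 13 genes the daf-16(mu86) groups do not overlap.

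The 2 genes that fell lie on chromosome IV, and both belong to 1 run of neighbours described below. clec-74 (WBGene00021585, 3957005 to 3960185, plus strand) had 0.961, 1.04 and 1.16 CPM with labelled bcat-1 RNAi, against 5.42, 6.76 and 6.76 CPM on vector. It was low in all 3 RNAi libraries, by -2.58 ± 0.44 on the log2 scale (edgeR adjusted p = 0.00904), and this call held in 19 of 20 other settings. clec-174 (WBGene00021580, 3940259 to 3941708, minus strand) had 0.557, 0.230 and 0.301 CPM with labelled RNAi and 1.46, 2.63 and 0.781 CPM on vector (-2.16 ± 0.48, edgeR adjusted p = 0.0241; 15 of 20 other settings).

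The number of calls differed between settings. Without libraries 7 and 8, which belong to the other strain, 32 of the 136 genes rose and 12 fell (20.9% and 14.8% of all genes tested), and all 13 calls above were kept. With neighbouring library numbers as a replicate block, 42 rose and 16 fell (25.7% and 18.5% of all genes tested), again with all 13. Fitted to the 6 libraries of the comparison alone, 34 rose and 11 fell among the 118 of the 136 that passed the filter there (24% and 16.5% of all genes tested), and DESeq2 called 8 higher and 4 lower (3.56% and 1.45% of all genes). The groups did not overlap, upwards, in 50 of the 136 genes and, downwards, in 15, against 29.5% and 25.1% of all genes tested. Leaving out 1 library of the comparison left 5 calls without RNAi replicate 1, 1 without RNAi replicate 2, 5 without RNAi replicate 3, 1 without vector replicate 1, 1 without vector replicate 2 and 2 without vector replicate 3. Of all genes, 0.246 to 1.87% were called higher in these 6 fits and 0.0176 to 0.0471% lower. The call that remained was clec-74 in each case with 1, while clec-78 and clec-174 remained without vector replicate 3. Without TU3311 vector replicate 3 there were 7 calls (2.64% of all genes higher and 0.153% lower), and without TU3311 daf-7 RNAi replicate 1 there were 21 (7.43% and 0.763%). RLE factors left 6 calls, 4 higher and 2 lower, with 297 and 33 of all 16618 genes called.

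Among the 10 genes with the highest levels no call was made in this comparison. Groups did not overlap, downwards, in 6 of them and, upwards, in 1, against 25.1% and 29.5% of all genes tested. clec-146 had 14.5, 12.9 and 18.2 CPM with labelled bcat-1 RNAi and 47.01, 31.3 and 38.9 CPM on vector (log2 -1.36 ± 0.48, edgeR adjusted p = 0.121; with the replicate block 3.07e-04). clec-266 had 549, 555 and 395 CPM with labelled RNAi and 175, 143 and 269 CPM on vector (1.35 ± 0.44, adjusted p = 0.0997; with the replicate block 0.00209). clec-87 had 2066, 1711 and 2043 CPM with labelled RNAi and 2748, 2802 and 2439 CPM on vector (-0.46 ± 0.41, edgeR adjusted p = 0.504; with the replicate block 0.00713). clec-88, clec-91, clec-1 and clec-150 were likewise lower without overlap (log2 -0.42, -0.68, -0.65 and -0.55; edgeR adjusted p = 0.320 to 0.538, with the block 7.85e-04 to 0.00722). These 7 genes also passed without libraries 7 and 8 (adjusted p = 9.91e-04 to 0.0289). Calls were common in both settings, with 14.8% of all genes lower and 20.9% higher without libraries 7 and 8. With the block these shares were 18.5% and 25.7%. Summed over clec-87, clec-88 and clec-91, a trio picked after its values were seen, the RNAi libraries held 2415 to 2792 CPM and the vector libraries 3309 to 3904 CPM, while the other 133 genes together held 2158 to 2684 CPM and 2068 to 2302 CPM. Values for clec-41, clec-50 and clec-63 overlapped between the groups, and clec-41 passed with the replicate block (log2 -0.36 ± 0.47, edgeR adjusted p = 0.644; 0.0176 with the block).

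Markers of cell types were read beside these values. The summed level of 9 intestinal markers overlapped between the groups, at 1025 to 1286 CPM with labelled bcat-1 RNAi and 1018 to 1271 CPM on vector. That of 8 epidermal markers was higher without overlap, at 160.6 to 257 CPM with labelled RNAi and 83.2 to 101 CPM on vector. Pharyngeal markers (235.4 to 381 CPM with labelled RNAi, 179 to 224 CPM on vector) and neuronal markers (374 to 383 CPM, against 328 to 349 CPM) were also higher without overlap. Oocyte and eggshell markers were lower, at 8491 to 10493 CPM with labelled RNAi and 13041 to 14866 CPM on vector. Coelomocyte markers were lower as well, at 8.17 to 10.9 CPM with labelled RNAi and 11.1 to 14.2 CPM on vector. The sum of the embryo markers was lower too, at 351 to 439 CPM with labelled RNAi and 465 to 489 CPM on vector. Yet the median log2 change of the 9 embryo markers tested was 0.03, so this sum does not stand for each marker. Sperm and muscle markers overlapped. No marker was at 0 in every library. The part of these cell types in the lectin values was not tested.

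C-type lectin genes often sit beside each other on a chromosome. Members numbered 44 of 86 annotated clec genes on chromosome V, 38 of 53 on IV, 27 of 48 on II, 12 of 36 on I, 12 of 14 on III and 3 of 3 on X. With neighbours defined as consecutive clec genes with starts within 20 kb, 87 of the 136 lay in runs of 2 or more clec genes, and 79 in runs that hold 2 or more of the 136. Near-identical paralogs can share reads, and how the counting treated such reads is not given in the sources used here.

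The run with the most members lies on chromosome V between 16839121 and 16867293 and holds 11 of the 136 genes (clec-40, clec-25, clec-36, clec-26, clec-37, clec-35, clec-27, clec-31, clec-22, clec-24 and clec-28, in order). All 11 had a log2 change above 0 under labelled bcat-1 RNAi, between 0.52 and 2.39, as did 58.5% of all genes tested. Of these, clec-27 and clec-37 would not have met the count rule without the libraries labelled bcat-1 RNAi. Their values in this comparison are thus not independent of the rule. Of the 11 genes, 3 (clec-40, clec-37 and clec-31) were called, against 4.18% of all genes called higher. In 7 of the 11 the groups did not overlap, upwards, against 29.5% of all genes. Without libraries 7 and 8, 5 were called, against 20.9% of all genes called higher. Their levels were low, with means over the 12 libraries between 0.186 CPM (clec-37) and 1.60 CPM (clec-26). Their CPM summed to 12.6, 12.4 and 9.00 with labelled bcat-1 RNAi and to 4.89, 7.07 and 4.89 on vector in daf-16(mu86). In TU3311 they summed to 6.59, 7.96 and 5.57 with labelled daf-7 RNAi and to 7.44, 8.78 and 7.72 on vector. There 5 of the 11 had a log2 change above 0, as did 52.7% of all genes tested.

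The run with 10 members, on chromosome IV between 3922165 and 4014235, was mixed. It holds clec-74 and clec-174, which fell, and clec-78, which rose, while its median log2 change was -0.12. Between clec-174 and clec-74 lie clec-72 and clec-73, whose log2 changes were -0.29 and -0.18 and were not called (edgeR adjusted p = 0.785 and 0.872). clec-75, the next clec gene after clec-74, stood at 1.503 ± 0.307 CPM with labelled RNAi and 1.47 ± 0.287 CPM on vector (SD, n = 3 each). In the run of 6 on chromosome IV between 1245171 and 1274425, clec-166 was called and the other 5 were not, with log2 changes from -0.29 to 0.59. With the replicate block 2 genes of this run were called higher, and in the run with 10 members 1 higher and 3 lower. Of all genes tested the block called 25.7% higher and 18.5% lower.

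**Figure D4:**
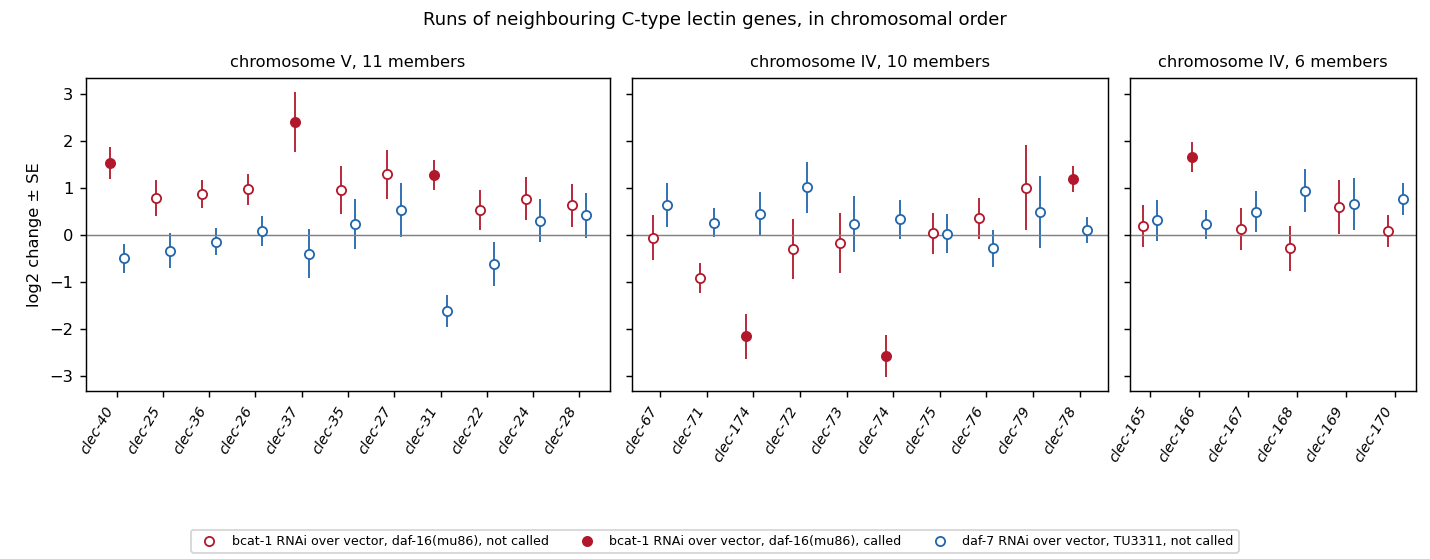
Log2 change ± SE of each C-type lectin gene in the 3 runs with the most members, in chromosomal order, for labelled bcat-1 RNAi over vector in daf-16(mu86) (red) and labelled daf-7 RNAi over vector in TU3311 (blue). Filled points passed the edgeR test, and in the chromosome V run all 11 red points lie above 0.

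The comparison of labelled daf-7 RNAi with vector asks how transcript levels differ in animals with RNAi-sensitive neurons. By edgeR 0 of the 136 genes were called, as were 0.0% of all genes in either direction, and 2 of the 136 had an unadjusted p under 0.05, as did 77 of all 16618 genes. DESeq2, the replicate block and the fit without libraries 7 and 8 also called 0 of the 136. Of all genes, DESeq2 called 0.00602% higher and 0.012% lower, the block 0.00602% lower and the fit without both libraries 0.00605% lower. The median log2 change was 0.10 over the 136 genes and 0.01 over all genes tested. Its sign rested on single libraries, since the median over the 136 genes was -0.18 without daf-7 RNAi replicate 1 (library 8) and 0.32 without vector replicate 1 (library 7). The member with the smallest p was clec-31, which did not pass (edgeR adjusted p = 1.00, unadjusted p = 3.47e-04). It had 0.228, 0.318 and 0.416 CPM with labelled daf-7 RNAi, against 0.922, 1.10 and 0.907 CPM on vector, so the groups did not overlap, and the log2 difference was -1.61 ± 0.34. The next 3 by p in that direction were clec-97 (-0.50 ± 0.24), clec-40 (-0.50 ± 0.31) and clec-29 (-0.81 ± 0.52). Upwards the 4 with the smallest p were clec-170 (0.75 ± 0.34), clec-168 (0.94 ± 0.46), clec-258 (1.17 ± 0.57) and clec-10 (0.65 ± 0.33), which did not pass either (edgeR adjusted p = 1.00 for each of these 7). Among them clec-258 had 13.1, 7.24 and 3.07 CPM with labelled RNAi, against 5.89, 2.63 and 1.88 CPM on vector. Groups did not overlap, upwards, in 3 of the 136 genes and, downwards, in 3, against 0.65% and 0.644% of all genes tested.

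The difference between the RNAi responses was tested in the same fit. It was called for clec-31 among the 136 genes, and for 0.102% of all genes upwards and 0.00602% downwards. clec-31 rose by 1.27 under labelled bcat-1 RNAi in daf-16(mu86) and differed by -1.61 under labelled daf-7 RNAi in TU3311, which gives a log2 difference of 2.88 ± 0.47 (edgeR adjusted p = 0.0327). This passed with the replicate block (0.00376), with DESeq2 (0.00186) and without libraries 7 and 8 (0.0144), and in 5 of 18 other settings in all (adjusted p up to 0.126). Without libraries 7 and 8 the difference was called for 17 of the 136 genes (11 higher and 6 lower), and with the replicate block for 40 (22 higher and 18 lower). Of all genes tested, 7.65% and 5.59% were called without libraries 7 and 8, and 15% and 11.2% with the block. DESeq2 called 2 of the 136 higher and 2 lower (0.65% and 0.138% of all genes). Of all 12 libraries left out in turn, 11 ended the call of clec-31, the exception being TU3311 vector replicate 1.

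**Figure D5:**
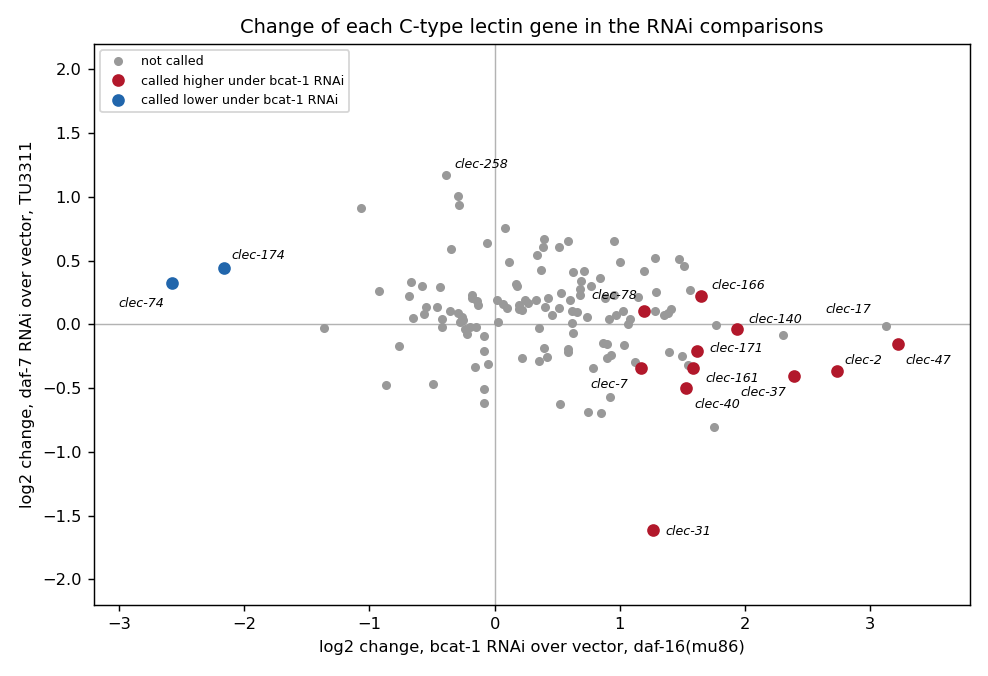
Log2 change of each of the 136 C-type lectin genes under labelled bcat-1 RNAi in daf-16(mu86) (x axis) and under labelled daf-7 RNAi in TU3311 (y axis), comparisons that share no library. Genes called in daf-16(mu86) are coloured, and clec-31 lies at 1.27 and -1.61.

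The strains were compared on vector, where daf-16(mu86) stands against TU3311. This comparison covers every genetic difference between the strains, and the libraries numbered 1 to 6 and 7 to 12 fall in different strains. Library titles also carry a code that is shared within each strain and differs between them, and its meaning is not stated. Numbering, title code and strain thus cannot be told apart. Of the 136 genes, 12 were lower and 2 higher in daf-16(mu86) by edgeR, against 6.5% and 0.132% of all genes tested. The median log2 difference was -0.56 over the 136 genes and -0.38 over all genes tested. Groups did not overlap, upwards, in 11 of the 136 genes and, downwards, in 44, against 25.8% and 30.7% of all genes tested. DESeq2 called 8 higher and 17 lower (18.5% and 10.0% of all genes), and the 6 vector libraries alone gave 2 higher and 8 lower among 116 tested (0.0907% and 3.32%). The vector libraries of daf-16(mu86) also enter the bcat-1 comparison, so the values of the 2 comparisons are not independent.

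clec-85 (WBGene00021872, chromosome IV, 2850886 to 2855456, plus strand), known as a target of the PMK-1 p38 immune pathway, had 12.3, 18.1 and 8.42 CPM in daf-16(mu86) and 77.3, 32.2 and 31.2 CPM in TU3311 on vector. The strains did not overlap, and library 7 had the highest value, with a log2 difference of -1.86 ± 0.41 (edgeR adjusted p = 0.0273, without libraries 7 and 8 0.0111). Its exons overlap Y54G2A.40 on the same strand. clec-65 (chromosome II, 12901325 to 12903336, plus strand), on the list of genes from infection studies described below, had 47.8, 43.0 and 32.6 CPM in daf-16(mu86) and 145, 99.3 and 64.99 CPM in TU3311 (-1.33 ± 0.36, edgeR adjusted p = 0.0472), and it did not pass without libraries 7 and 8 (0.0618). clec-57 had 4.77, 4.99 and 5.60 CPM in daf-16(mu86) and 16.2, 12.5 and 9.91 CPM in TU3311 (-1.33 ± 0.29, edgeR adjusted p = 0.0264). clec-75, the neighbour of clec-74, had 1.54, 1.72 and 1.15 CPM in daf-16(mu86) and 8.77, 3.83 and 3.79 CPM in TU3311 (-1.89 ± 0.44, edgeR adjusted p = 0.0307).

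clec-74 went the other way. It had 5.42, 6.76 and 6.76 CPM in daf-16(mu86) on vector, against 2.74, 1.20 and 1.51 CPM in TU3311 on vector (1.79 ± 0.43, edgeR adjusted p = 0.0329), and 0.961, 1.04 and 1.16 CPM in daf-16(mu86) with labelled bcat-1 RNAi. The other gene called higher in daf-16(mu86) was clec-232, named after its value was seen, which averaged 1.801 ± 0.527 CPM there and 0.153 ± 0.109 CPM in TU3311 on vector (SD, n = 3 each). clec-9, clec-40, clec-53, clec-76 and clec-227, also named after their values were seen, complete the 12 that were lower. Without the TU3311 libraries clec-9 would not have met the count rule.

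Leaving out 1 library left, of 14 strain calls, 1 without daf-16(mu86) vector replicate 1, 4 without replicate 2 and 1 without replicate 3, while 0.158 to 0.516% of all genes were called lower. The number was 4 without TU3311 vector replicate 1 (library 7), with 1.43% of all genes called lower. Without TU3311 daf-7 RNAi replicate 1 (library 8) it was 39 (6 higher and 33 lower), against 14.1% and 22.3% of all genes, and without both of these libraries it was 23 (6 higher and 17 lower), against 15.8% and 15.7%. Intestinal markers overlapped between the strains, at 1018 to 1271 CPM in daf-16(mu86) and 843 to 1351 CPM in TU3311 on vector. Coelomocyte markers overlapped too (11.1 to 14.2 CPM, against 12.2 to 30.9 CPM). Lower without overlap in daf-16(mu86) were muscle markers (412 to 538 CPM, against 880 to 1656 CPM in TU3311), pharyngeal (179 to 224, against 292 to 505), neuronal (328 to 349, against 355 to 443), epidermal (83.2 to 101, against 127 to 143) and sperm markers (4.46 to 7.24, against 11.4 to 33.8). Higher without overlap were oocyte and eggshell markers (13041 to 14866 CPM in daf-16(mu86), against 9962 to 11143 CPM in TU3311) and embryo markers (465 to 489, against 177 to 391). Their part in the lectin values was not tested.

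A list of 19 lectin genes known from infection studies or for another described role was followed across the groups, and 17 of its genes were among the 136 (clec-39 and clec-70 were below the count rule). Under labelled bcat-1 RNAi clec-7 rose and the other 16 were not called, where 4.18% of all genes rose and 0.144% fell. The median log2 change of the 17 was 0.59, against 0.49 over the 136 genes and 0.16 over all genes. In daf-16(mu86) against TU3311 on vector 5 of the 17 were lower and 0 higher, against 6.5% and 0.132% of all genes. Their median log2 difference was -0.61, against -0.56 over the 136 genes and -0.38 over all genes. They were clec-85 and clec-65, given above, and clec-42, clec-61 and clec-17. clec-42, another gene studied in bacterial infection, had 0.154, 0.572 and 0.102 CPM in daf-16(mu86) and 3.85, 1.45 and 2.09 CPM in TU3311 (-3.07 ± 0.67, edgeR adjusted p = 0.0264). clec-17 had 0, 2 and 0 counts in daf-16(mu86) and 128, 18 and 41 counts in TU3311 on vector (edgeR adjusted p = 0.0261). clec-61 had 1, 2 and 0 counts in daf-16(mu86) and 56, 22 and 8 counts in TU3311 (edgeR adjusted p = 0.0262). Both were close to silent in daf-16(mu86) on vector, and in TU3311 library 7 held the most counts of each. Neither would have met the count rule without the TU3311 libraries, so their place among the 136 is not independent of this difference.

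Of the list's genes without a call, the 6 with the highest mean CPM, not scaled for length, are given in what follows. clec-41 averaged 229 ± 41.1 CPM with labelled bcat-1 RNAi and 294 ± 66.1 CPM on vector in daf-16(mu86), and 483 ± 295 CPM with labelled daf-7 RNAi and 449 ± 333 CPM on vector in TU3311 (SD, n = 3 each, as for the next 5 genes). clec-186 averaged 43.7 ± 10.2 and 50.8 ± 8.33 CPM in the daf-16(mu86) RNAi and vector libraries, and 61.4 ± 21.1 and 64.7 ± 18.3 CPM in those of TU3311. clec-66 averaged 12.2 ± 4.47 and 7.94 ± 1.51 CPM, and 10.5 ± 2.87 and 9.76 ± 1.01 CPM, in the same order. These 3 genes thus overlapped within each strain. clec-49, needed for resistance to Serratia marcescens, averaged 6.43 ± 1.68 CPM with labelled bcat-1 RNAi and 5.70 ± 1.42 CPM on vector in daf-16(mu86). In TU3311 it averaged 7.22 ± 1.56 CPM with labelled daf-7 RNAi and 5.79 ± 0.840 CPM on vector. clec-71 averaged 4.36 ± 1.23 and 8.26 ± 2.67 CPM in the RNAi and vector libraries of daf-16(mu86), a difference that was called with the replicate block (adjusted p = 0.0113) and not without it (edgeR adjusted p = 0.117). clec-67, known as a gene induced on infection, averaged 4.36 ± 2.80 and 4.53 ± 2.35 CPM in the RNAi and vector libraries of daf-16(mu86), and 6.99 ± 2.21 and 4.49 ± 0.375 CPM in those of TU3311.

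The 4 lists that follow give the setting of the family within intestinal defence. Of all genes tested, 4.18% rose and 0.144% fell under labelled bcat-1 RNAi. Of 12 lysozyme genes tested, which encode enzymes that cut bacterial cell walls, lys-10 fell under labelled bcat-1 RNAi (log2 -1.65 ± 0.43, edgeR adjusted p = 0.0457). Its level was low, with a mean of 0.151 CPM with labelled RNAi and 0.468 CPM on vector. In daf-16(mu86) against TU3311 on vector 5 of the 12 were lower, where 6.5% of all genes were, among them lys-7 (-2.11 ± 0.53, edgeR adjusted p = 0.0393), a known DAF-16 target. On vector lys-7 averaged 1066 ± 126 CPM in daf-16(mu86) and 4610 ± 3390 CPM in TU3311 (SD, n = 3 each). Summed over 15 lysozyme genes, library 7 held 10414 CPM and the other TU3311 vector libraries 3934 and 3306 CPM. Of 23 saposin-like genes, whose products can permeabilize membranes, spp-4 rose under labelled bcat-1 RNAi (1.16 ± 0.28), and 5 were lower in daf-16(mu86) than in TU3311 on vector, against the same 6.5% of all genes, among them spp-20 (-3.31 ± 0.53) and spp-12 (-3.23 ± 0.71). On vector spp-12 averaged 0.434 ± 0.206 CPM in daf-16(mu86) and 4.05 ± 3.94 CPM in TU3311 (SD, n = 3 each). Of 6 genes of the PMK-1 pathway, tir-1, the adaptor upstream of the kinase cascade, rose under labelled bcat-1 RNAi (1.11 ± 0.23, edgeR adjusted p = 0.0170) and was lower in daf-16(mu86) than in TU3311 on vector (-0.81 ± 0.23, adjusted p = 0.0498). Of 7 transcription regulators of intestinal immunity, daf-16 itself was lower in daf-16(mu86) on vector and the other 6 were not called. In TU3311 with labelled daf-7 RNAi 0 genes of these 4 lists were called by edgeR.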

How the data were processed

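Expression was measured by RNA-seq of total RNA from whole animals, and the labels' protocols name a TruSeq RNA kit for the libraries. The authors deposited whole-number counts for each gene. Per the submitters' processing notes, the tools included bcl2fastq 1.8.4, STAR 2.4.1d and featureCounts 1.4.6-p4, with WBcel235 as the build. Strand setting and treatment of reads with several matches are not given in the sources used here. Deposited RPKM values were not used. Names, exon lengths and coordinates came from release 115 of an annotation on that build, which held 46449 of 46748 identifiers.

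The counts of all 12 libraries were fitted together in edgeR 4.0.16 (R 4.3.3, limma 3.58.1) with TMM scaling, its default filter and a robust quasi-likelihood F test, two-sided. A gene was called where its Benjamini-Hochberg adjusted p over the 16618 genes tested was under 0.05. SE values were derived from the test by dividing the size of the log2 change by the root of F, so they carry no information beyond p. Alternatives were RLE and upper-quartile factors, no filter, DESeq2 1.42.0, the 6 libraries of a comparison alone, no libraries 7 and 8, a replicate block, and each library left out in turn. The edgeR fit was tested on simulated counts for the bcat-1 comparison only, with no change given to genes at low levels. The other comparisons, settings and steps were not tested in this way.

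The labels give no pairing. Neighbouring library numbers (1 with 2, and so on) were checked on the values, where deviations of neighbours correlated at 0.398, 0.284 and 0.158 in daf-16(mu86), and at 0.892, 0.777 and 0.504 in TU3311. The block is given for numbers of calls and for some of the genes named. A gene given without it may still have been called with the block. Members and lists were chosen with earlier results of these data known. Genes named are the members called under labelled bcat-1 RNAi, up to 8 per direction called between strains with a mean of at least 2 CPM, up to 6 called for the difference, the 4 smallest p per direction where no member was called, the 10 highest levels, the list of known roles and the 3 largest runs.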

Additional observations from a re-analysis of the deposited data

Results flagged for a closer look

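clec-31 stands out because its responses to the labelled RNAi differed between the strains by a test of that difference. The log2 difference between the responses was 2.88 (edgeR adjusted p = 0.0327). It kept its call in 5 other settings and missed the threshold in 13, among them most fits with a single library left out. All 3 libraries labelled bcat-1 RNAi lay above the daf-16(mu86) vector libraries, and all 3 labelled daf-7 RNAi lay below the TU3311 vector libraries. Its counts were 77, 60 and 79 with labelled bcat-1 RNAi, 12, 37 and 23 on vector in daf-16(mu86), 10, 12 and 13 with labelled daf-7 RNAi, and 41, 44 and 39 on vector in TU3311. RNAi target and strain changed together, so they cannot be told apart.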

How the results depend on the processing

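The number of C-type lectin genes called in the bcat-1 comparison was 13, and it became 6 with RLE factors, 45 with the 6 libraries of the comparison alone, 44 without libraries 7 and 8, 58 with the replicate block, and 52 with the block fitted to those 6 libraries (chosen after seeing the data). In the last of these fits 118 lectin genes were tested. There 3848 of all 15124 genes were called higher and 2559 lower. The number of lectin genes called ranged between 1 and 21 with 1 library left out. The number called between the strains was 14, and it became 7 with RLE factors, 25 with DESeq2 and 23 without libraries 7 and 8, with a range between 1 and 39 with 1 library left out. With RLE factors 14 of all 16618 genes were called higher between the strains and 242 lower. No replicate block can be fitted there, since pairs lie within strains. The number called for the difference between the responses was 1, and it became 0 with RLE or upper-quartile factors, 2 without a filter, 4 with DESeq2, 17 without libraries 7 and 8 and 40 with the replicate block, with a range between 0 and 2 with 1 library left out. The daf-7 comparison gave 0 in each of these settings. The causes were not tested. The 28 called values of single genes kept their direction in all 525 values from other settings, and 185 of these missed the threshold. The settings refit the same libraries and the 28 were picked as called, so the kept direction is no separate support. Among the uncalled values, clec-63 under labelled bcat-1 RNAi ranged between -0.017 and 0.52 with 1 library left out, and was below 0 without daf-16(mu86) vector replicate 3. clec-50 turned to -0.19 with RLE factors and with DESeq2 and to -0.047 without a filter, and ranged between -0.14 and 0.17 with 1 library left out. RLE and upper-quartile factors moved the median change of all genes in the bcat-1 comparison to -0.04 and 0.31, and that of the lectin genes to 0.27 and 0.63. The 55 genes with a mean under 1 CPM rest on few reads per library, which limits what could be detected in them.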
